A study of Arabidopsis thaliana with 16 samples.

Results

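The organelle-genome probe sets of the Affymetrix ATH1 array report the transcripts of genes that lie in the mitochondrion and the plastid and not in the nucleus. They were taken by number, from probe set 244901 to 245050, and their signals played no part in the choice. The block holds 150 probe sets, and by the array annotation 130 of them belong to an organelle genome, 50 mitochondrial and 80 plastid. The other 20 belong to nuclear genes of chromosome 2. All 150 were among the 22687 probe sets tested, of 22810 on the array.

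The cells were callus of *Arabidopsis thaliana* Col-0, derived from hypocotyls, aged 14 days by the labels and grown in the dark on agar plates inside BRIC canisters, with one line of wild type (WT) and one line with a T-DNA insertion (SALK_008978C) in *HSFA2*, a heat shock transcription factor (HSFA2 KO). FWt and FHsf are WT and HSFA2 KO cells flown to the space station and fixed in RNAlater on day 10 in orbit, and GWt and GHsf are the ground plates of the same lines, run with a delay of 48 h. The 16 arrays were reduced to 14 units, 4 WT plates (A1, A2, B1, B2) and 3 HSFA2 KO arrays per environment, because plate A1 of WT had 2 arrays in each environment and their mean was used. Canister A held WT plates only and canister B both genotypes, and GHsf arrays B3 and B3-2 may be repeats of the same plate, since their labels disagree. They were kept as separate units, so n = 3 in GHsf counts arrays and may stand for 2 plates. Each genotype was a single callus line, so genotype and line cannot be told apart.

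Mitochondria and plastids keep small genomes of bacterial descent, which encode a few subunits of the respiratory chain and the photosynthetic apparatus, ribosomal proteins and, in plastids, the core of their own RNA polymerase. Nuclear genes supply every other subunit, so each complex is built from transcripts of separate genomes. In dark-grown callus the plastids are not green, while respiration carries the energy supply. Because every cell holds many copies of both genomes, a change in signal in bulk RNA cannot be told apart from a change in the number of organelles, or of cells rich in them.

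Values are MAS5 signals, a linear brightness scaled by the authors to a common trimmed mean on every array. Of the 50 mitochondrial probe sets, 35 had a mean signal above the median of all tested probe sets, including all 15 for genes of known function. The 35 others cover open reading frames of unknown function, of which 20 passed that level. Of the 80 plastid probe sets, 73 passed it. A probe set was called where the unadjusted p of limma was under 0.01 and the log2 fold change exceeded 1 in size, and the Benjamini-Hochberg adjusted p over all 22687 probe sets is given beside it.

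The *HSFA2* probe set checked the genotypes. Its signal was 3187 to 6291 in the GWt plates and 5362 to 9179.8 in the FWt plates, against 7.38 to 76.5 in GHsf and 34.5 to 169.7 in FHsf. Of the callus markers, 6 of 7 were measured, and 3 or 4 of them stood above the median signal in every group. The others did not, with lowest group means from 12.4 in FHsf to 18.3 in GHsf. Root markers stood above it in 4 of 4 in every group, and green tissue markers in 2 or 3 of 3. Cell division markers did in 1 to 3 of 3, and xylem markers in 1 or 2 of 4. The count therefore does not set callus apart. All but 1 of the 4 comparisons kept the median of all probe sets within 0.1 of 0 on the log2 scale, the exception being GHsf : GWt at 0.12, which became -0.15 when arrays were centred on their medians and -0.01 after quantile normalization. Centring also moved FHsf : GHsf from -0.07 to 0.12. Organelle changes in GHsf : GWt are to be read against that shift.

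Mitochondrial signals lay higher in HSFA2 KO than in WT cells in both environments, with few single genes past the thresholds. In GHsf : GWt, 42 of 50 mitochondrial probe sets lay above 0, where 56.7% of all tested did, with a median log2 fold change of 0.74 against 0.12 over all tested. In FHsf : FWt, which rests on other samples, 46 of 50 lay above 0, where 54.5% of all tested did, with a median of 0.87 against 0.07. In both comparisons together, 39 of 50 were higher in HSFA2 KO, which is 78.0% beside 35.0% of all tested, and 1 was lower. The 15 genes of known function were all higher in both, by medians of 0.83 and 0.90. Of the 50, 1 was called higher in GHsf : GWt, where 2.46% of all tested were called and 1.53% were called higher. In FHsf : FWt 2 of 50 were called higher, where 1.75% of all tested were called and 1.18% were called higher. Counts this small show neither a likeness to the array nor an excess over it. At an unadjusted p under 0.05, 8 were higher and none lower in GHsf : GWt, where 6.55% of all tested were higher and 4.12% lower, and 11 were higher and none lower in FHsf : FWt, where 4.70% were higher and 3.22% lower. In GHsf : GWt the units of the groups did not overlap for 16 of 50, all higher in GHsf, against 7.95% of all tested. In FHsf : FWt this held for 4 of 50, against 5.73%. As medians per unit over the 50, on the log2 scale, FWt A1 at 8.57 and B2 at 8.72 lay within the FHsf range of 8.35 to 8.72. FWt A2 at 7.46 and B1 at 6.67 lay below it. On the ground, GWt A1 at 8.38 lay above GHsf B3-2 at 8.36.

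**Figure D1:**
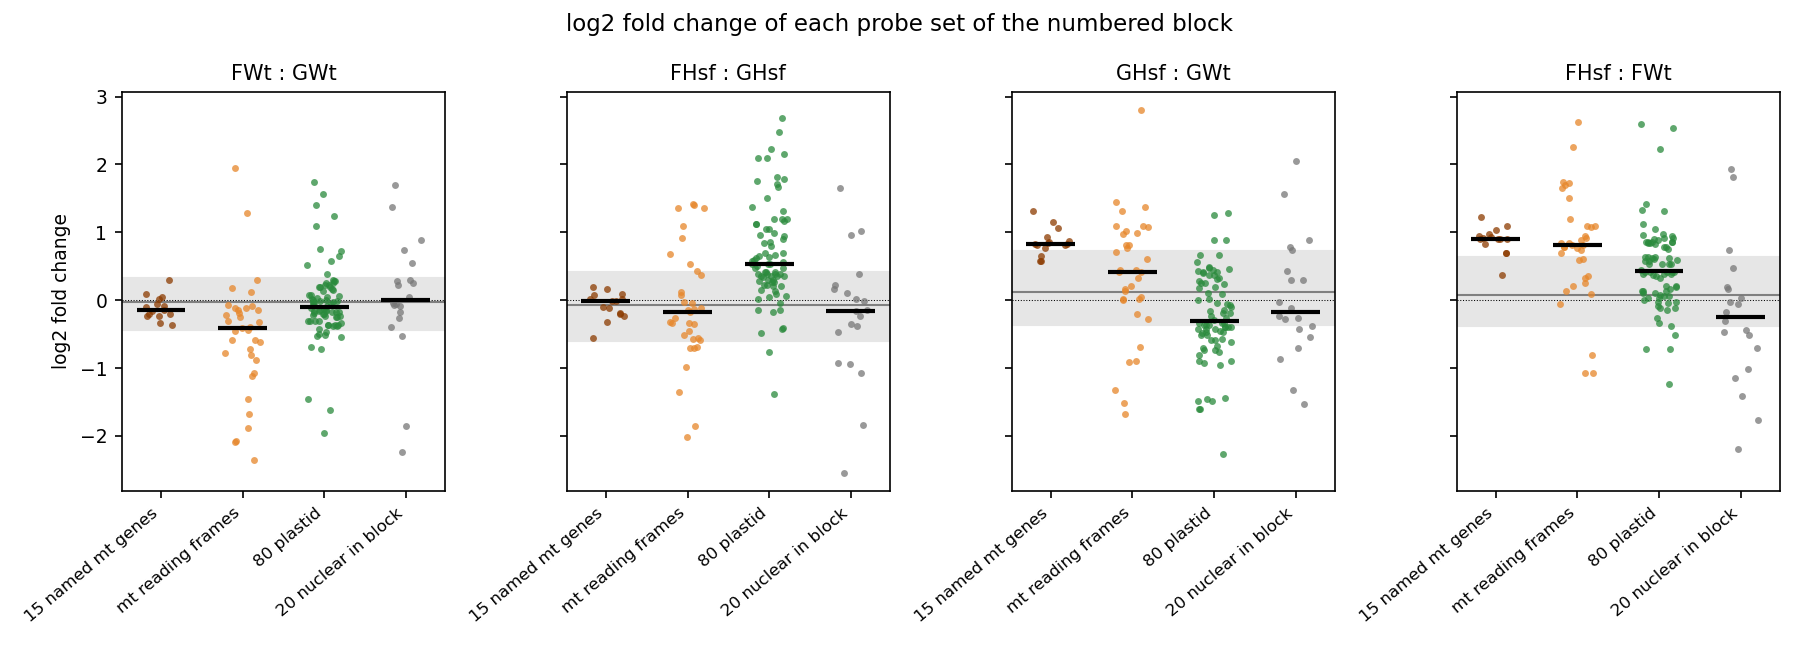
log2 fold change (y axis) of each probe set of the numbered block in the 4 comparisons, 1 point per probe set, for 15 named mitochondrial (mt) genes, 35 mitochondrial open reading frames, 80 plastid genes and 20 nuclear genes. Thick bars are medians, the grey line and band the median and middle 50% of all 22687 tested, and the named mitochondrial genes lie at medians of 0.83 and 0.90 in GHsf : GWt and FHsf : FWt, and at -0.14 and -0.01 in the 2 spaceflight comparisons.

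Complex I, the NADH dehydrogenase that admits electrons to the respiratory chain, has 6 genes in the block, and they had medians of 0.88 in GHsf : GWt and 0.99 in FHsf : FWt. Its membrane subunit gene *nad3* (ATMG00990, mitochondrial genome 260647 to 261006 in the array annotation, minus strand) differed most of the 15 and was picked for that after its values were seen. Its signals were 6265, 4615, 8319.7 and 3385 in the GWt plates A1, A2, B1 and B2, and 8569.8, 10863 and 25479.7 in GHsf B3, B3-2 and B5. They were 8324, 4974, 3917 and 6456 in FWt, and 10747, 13146 and 16517 in FHsf B3, B4 and B5. Every HSFA2 KO unit stood above every WT unit of both environments. The log2 fold change was 1.32 (SE 0.43, adjusted p of limma 0.314) in GHsf : GWt and 1.22 (SE 0.43, adjusted p of limma 0.501) in FHsf : FWt. Where the prior spread of limma was allowed to follow the signal, the same fold changes had adjusted p of 0.0135 and 0.0354. In that fit *nad3* was the only one of the 15 to pass 0.05, where 1.96% and 1.06% of all tested passed. The *nad3* probe set also matches the copy of mitochondrial DNA inserted in chromosome 2, so RNA from that copy cannot be told apart from that of the mitochondrial gene.

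The gene *nad9* (ATMG00070, 23663 to 24235), for a subunit of the matrix arm of complex I, has no such match. Its signals were 13089.6, 7723, 14494 and 11395 in GWt and 20240.0, 18621 and 27106 in GHsf, without overlap. In FWt they were 17759, 6361, 5952 and 13242, and in FHsf 15320.3, 25664 and 16722, with FWt A1 inside the range of FHsf. The log2 fold changes were 0.93 (SE 0.41) and 0.95 (SE 0.41), with adjusted p of limma of 0.447 and 0.616. An exact permutation test over the units of *nad9* gave a two-sided p of 0.0571 in GHsf : GWt, the smallest that 3 against 4 units allow, and 0.171 in FHsf : FWt. The test in GHsf : GWt counts GHsf B3 and B3-2 as separate units. The third subunit named, *nad7*, had log2 fold changes of 1.06 (SE 0.50) and 1.10 (SE 0.50), and its groups overlapped through GHsf B3-2 at 937, which lay below GWt B1 at 941, and through FHsf B3 at 892.

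Cytochrome c oxidase, complex IV, which hands electrons to oxygen, is represented by *cox2* (ATMG00160, 40502 to 42628). Its mean signal was 26084 ± 5867 (SD, n = 4) in GWt and 46757 ± 11475 (SD, n = 3) in GHsf, and 28739 ± 14167 (SD, n = 4) in FWt and 49379.8 ± 12126 (SD, n = 3) in FHsf. The GHsf units, from 33915 to 56005, all lay above the highest GWt plate at 32824. The highest FWt plate, A1 at 44294, overlapped FHsf B3 at 36238. The log2 fold changes were 0.84 and 0.90 (SE 0.42 each), with adjusted p of limma of 0.509 and 0.632. The ATP synthase gene *atp4* had log2 fold changes of 1.15 and 0.93 (SE 0.54 each), the 4 genes of cytochrome c maturation medians of 0.85 and 0.80, and the mitochondrial ribosomal protein gene *rpl16* 0.77 and 0.83 (SE 0.33 each). Of the 15, *ccmFN1* had the smallest value in FHsf : FWt, at 0.37, with 0.58 in GHsf : GWt (SE 0.41 each). The intron maturase gene *matR* stood at 0.81 and 0.90 (SE 0.48 each). Of these, *atp4* was named after its values were seen.

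**Figure D2:**
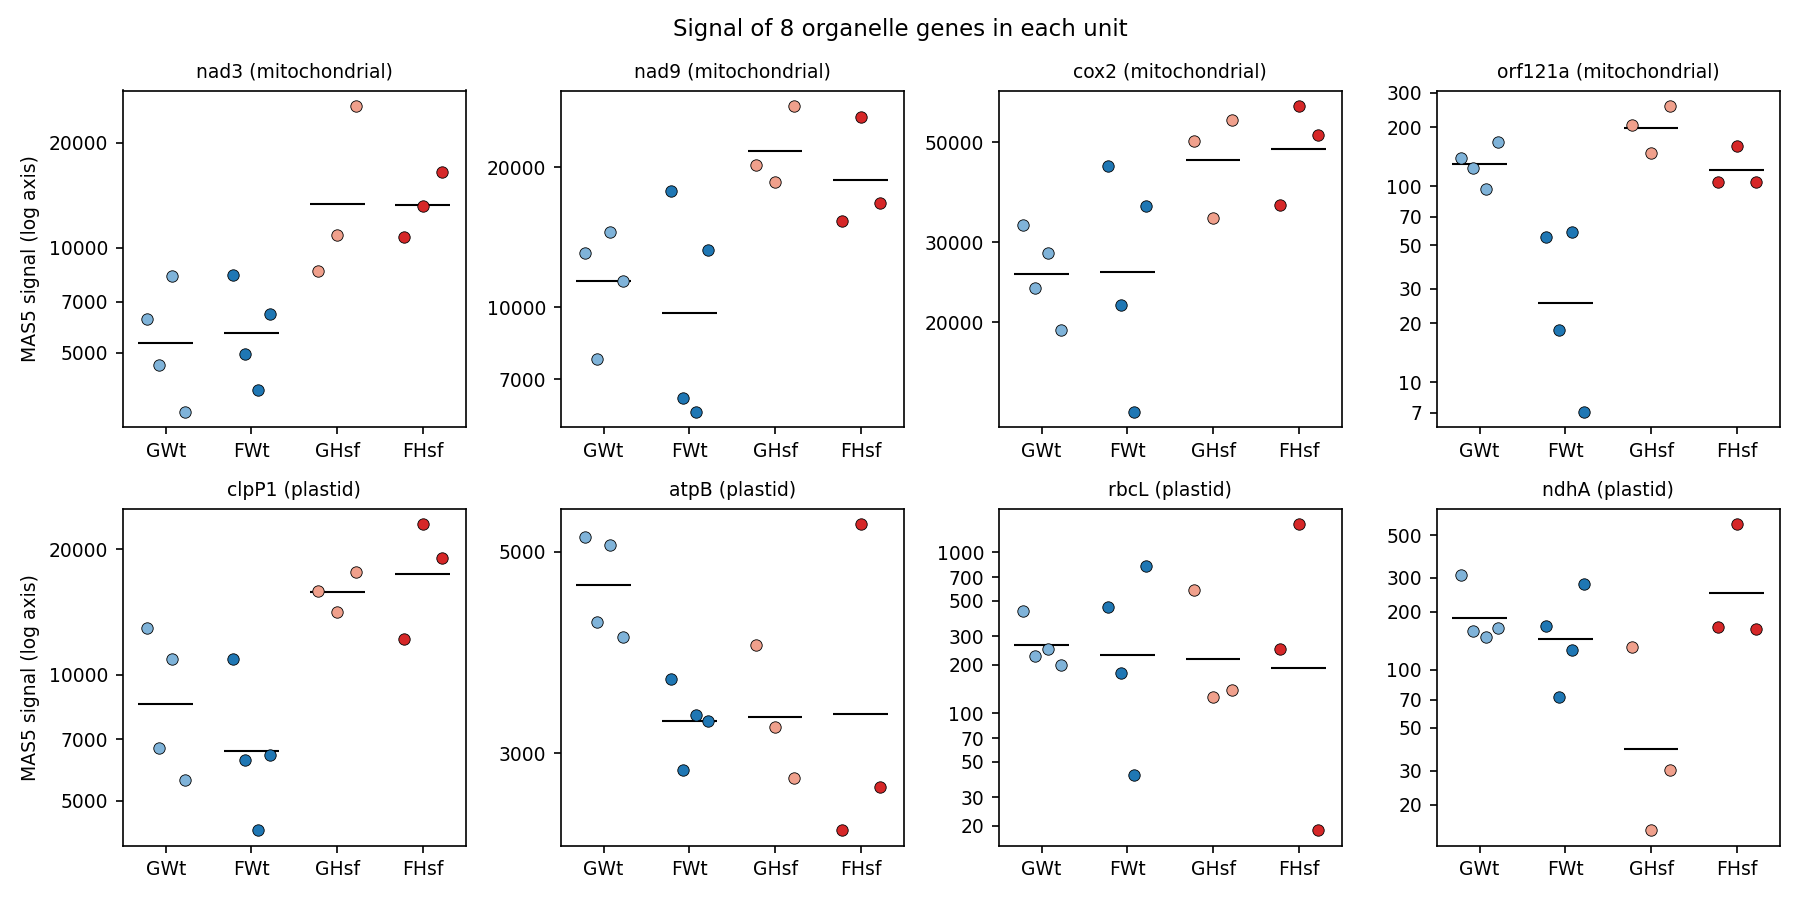
MAS5 signal (y axis, log scale) of 4 mitochondrial and 4 plastid genes in the 14 units by group, with bars at the geometric mean. All 3 GHsf and all 3 FHsf units lie above all WT units for nad3, and FHsf B4 is the top point for atpB, rbcL and ndhA.

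The open reading frames spread more widely, from -1.67 to 2.80 in GHsf : GWt and from -1.08 to 2.62 in FHsf : FWt, with a median residual SD of 1.25 against 0.56 for the 15 named genes. Calls among mitochondrial probe sets were confined to them. In GHsf : GWt *orf135b* rose by 1.31 (SE 0.41, adjusted p of limma 0.298), from a mean of 103 ± 49.7 (SD, n = 4) to 240.3 ± 63.0 (SD, n = 3). In FHsf : FWt *orf240a* rose by 1.51 (SE 0.45, adjusted p of limma 0.400), with FWt at 3363, 866, 1074 and 2309 and FHsf at 3358, 6216 and 4854, where FWt A1 and FHsf B3 met. The other call, *orf121a* (ATMG00130, 34190 to 34555), rose by 2.25 (SE 0.63, adjusted p of limma 0.372) in FHsf : FWt, or by 1.29 with 32 added to each signal, and it was also lower in FWt than in GWt, as given with the spaceflight comparisons. These calls were lost under part of the other settings, for *orf135b* in 21 of 28, *orf240a* in 9 of 28 and *orf121a* in 7 of 28. For *orf135b* they include median centring (1.03), quantile normalization (1.11), the added 32 (0.99), the intensity trend (1.31) and GHsf B3 arrays averaged (1.34). For *orf121a* they include median centring (2.09) and quantile normalization (2.13), and for *orf240a* terms for canister (1.56) and array run (1.47). Among the fits that left out 1 unit, the call of *orf135b* was lost in 10 of 14, with log2 fold changes of 1.08 to 1.57. That of *orf240a* was lost without FHsf B4 or B5 and without FWt A2 or B1 (1.20 to 1.48), and that of *orf121a* without FHsf B4 or FWt A2 (2.04 and 2.09).

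The mitochondrial difference was measured with and without a match to chromosome 2. The 31 probe sets that also match chromosome 2 had medians of 0.77 in GHsf : GWt and 0.79 in FHsf : FWt, and the 19 that do not had 0.65 and 0.90. The array has 62 further mitochondrial probe sets outside the numbered block, 53 of them with a chromosome 2 match. Their medians were 0.63 and 0.73, with 47 and 56 of 62 above 0. Among them *cox1*, the core subunit of complex IV, stood at 0.62 and 0.64 (SE 0.40 each), and *atp9*, of the ATP synthase ring, at 0.27 and 0.30 (SE 0.34 each). The complex I gene *nad5* has 2 probe sets there, with 0.69 and 1.10 (SE 0.41 each) for one and 0.81 and 0.87 (SE 0.43 each) for the other. The 20 nuclear probe sets of chromosome 2 inside the block stood at -0.18 and -0.24, with 8 and 7 of 20 above 0 and none called.

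The size of the mitochondrial difference moved with single units. In GHsf : GWt the median over the 15 named genes was 0.83, and 0.57 without GHsf B5, the highest unit of all 14 for 12 of the 15 genes. In FHsf : FWt it was 0.90, and 0.63 without FWt B1, the lowest unit for 13 of the 15. Without both GHsf B3 arrays, which leaves the single array B5, it was 1.36 in GHsf : GWt. All 15 stayed above 0 in each comparison under each of the 28 other settings, which include the 3 other scalings, with medians of 0.56 to 1.36 and 0.63 to 1.20. Part of the 28 could not move these fold changes. Those were leaving out a unit of the other environment, the intensity trend, the 2 groups alone in the fit and the filters of probe sets. Of the settings that could, the WT plates of canister B alone gave 0.82 and 1.08, and a term for array run gave 0.72 and 0.86. Array run was inferred from the replicate suffix of the sample titles, and a title without one was taken as a first array. The repeat arrays differed as well, in that the second array of WT plate A1 read 0.57 higher than the first in FWt and 0.90 higher in GWt, as a median over these 15 genes, against 0.11 and 0.15 over all tested, while GHsf B3-2 read -0.12 against B3. A difference close to that between the genotypes thus also lay between arrays of the same plate. With first arrays only, which leaves a single GHsf array, B3, and FHsf B4 and B5, the medians were 0.77 and 1.15. With GHsf B3 and B3-2 averaged, the median in GHsf : GWt was 0.97.

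**Figure D3:**
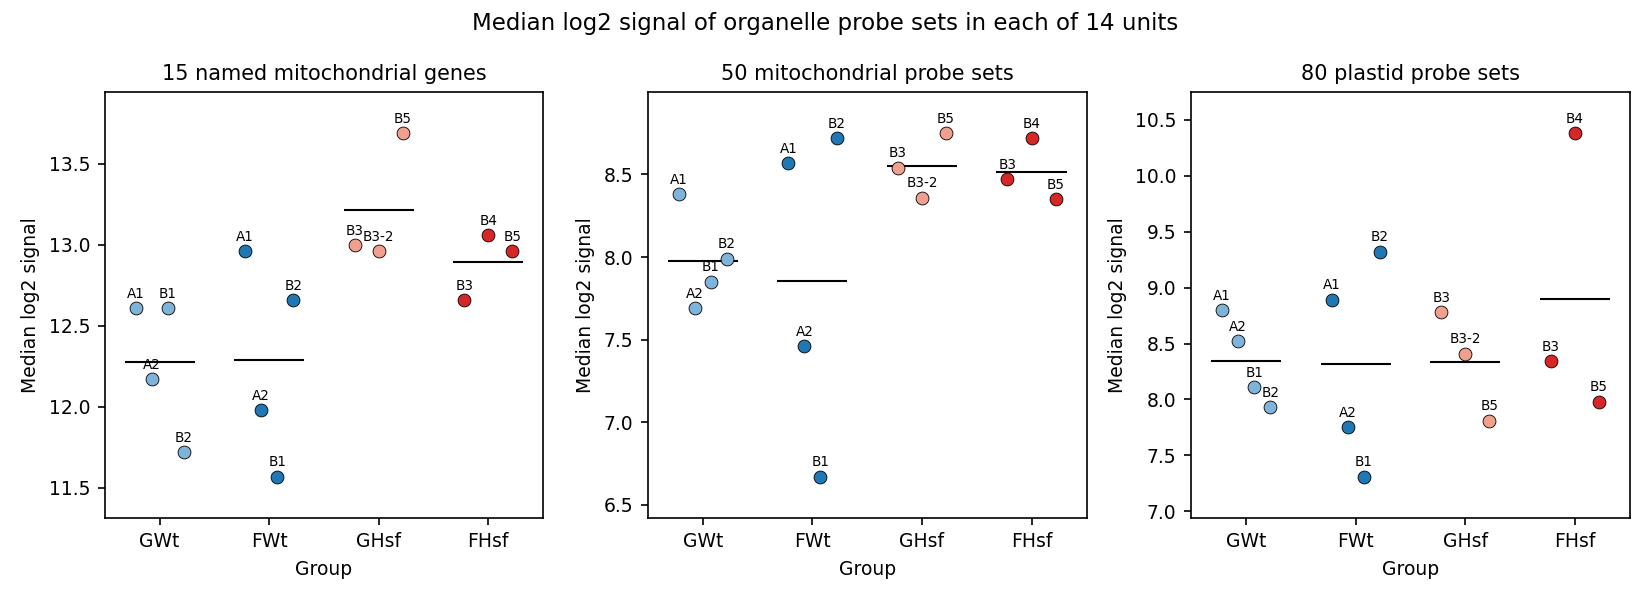
Median log2 signal (y axis) of 15 named mitochondrial genes, of all 50 mitochondrial and of all 80 plastid probe sets, 1 point per unit, by group, with bars at the group mean. The HSFA2 KO units lie between 12.66 and 13.69 for the named mitochondrial genes, a range that also holds FWt A1 at 12.96 and FWt B2 at 12.66. FHsf B4 stands at 10.38 for the plastid probe sets, above all other units.

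Between spaceflight and ground most mitochondrial probe sets lay below 0, and in both genotypes this turned when single units were left out. In FWt : GWt the median over the 50 probe sets was -0.23 against -0.03 over all tested, with 9 above 0 where 46.9% of all tested were, and without plate FWt B1 it was 0.05, with 29 above 0. The single call of 50 was *orf121a*, where 0.807% of all tested were called and 0.414% were called lower. It read 55.4, 18.4, 58.6 and 7.07 in FWt A1, A2, B1 and B2 against 139, 124, 97.1 and 169 in GWt, without overlap. It fell by 2.35 (SE 0.58, adjusted p of limma 0.917), with an exact permutation p of 0.0286, two-sided, the smallest that 4 against 4 units allow. The FWt signals of *orf121a* lay below the median of their arrays, and B2 at 7.07 lay below its array's lower quartile of 31.5. With 32 added to each signal the difference was -1.36. In FHsf : GHsf the corresponding value was -0.71 (SE 0.67), with 105, 161 and 105 in FHsf and 206, 147 and 257 in GHsf. The call of *orf121a* was lost with plates of canister B alone, at -2.65, and with first arrays only, at -2.17. In FHsf : GHsf none of the 50 mitochondrial probe sets was called, where 1.51% of all tested were, and their median was -0.13 against -0.07, with 18 above 0. This direction rested on single units too, with 31 of 50 above 0 (median 0.14) without FHsf B3, 30 (0.06) without GHsf B5 and 28 (0.06) when arrays were centred on their medians. The named genes ran from -0.56 to 0.19 there and from -0.36 to 0.29 in FWt : GWt.

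Plastid signals lay higher in FHsf than in GHsf and FWt, and this rested on single units, foremost the array of plate FHsf B4. In FHsf : GHsf, 71 of 80 plastid probe sets lay above 0, where 45.9% of all tested did, with a median log2 fold change of 0.53 against -0.07 over all tested, and in FHsf : FWt 65 of 80 did, with a median of 0.44. Without FHsf B4 these medians were 0.04 and -0.11, with 44 and 34 of 80 above 0, and without FHsf B5 they were 1.05 and 0.97. In FHsf : FWt the median was 0.11, with 51 of 80 above 0, without FWt B1. The second array of WT plate A1 read 0.37 higher than the first in FWt and 0.84 higher in GWt, as a median over the plastid probe sets. GHsf B3-2 read -0.10 against B3. FHsf B4 was the highest of the 14 units for 68 of 80 plastid probe sets, which is 85.0% against 12.4% of all tested, and for 15 of 50 mitochondrial ones. It exceeded the mean of FHsf B3 and B5 by a median of 1.94 over the plastid probe sets, 0.62 over the mitochondrial ones and 0.18 over all tested. In GHsf : GWt the plastid median was -0.31, with 28 of 80 above 0. It turned to 0.23 without GHsf B5. With the WT plates of canister B alone it was -0.03, with 38 of 80 above 0, and with a canister term it was -0.04. With first arrays only, which leaves GHsf B3 as the one GHsf array and drops FHsf B3, it was 0.46. In FWt : GWt it was -0.11, and 0.24 without FWt B1. The interaction of genotype and environment was called for none of the 130 organelle probe sets by limma, where 1.02% of all tested were. At an unadjusted p under 0.05 it was positive for 5 plastid ones, where 2.18% of all tested were, with a limma adjusted p of 0.999 at the smallest. These, listed because there were 5, were *ndhA* at 3.05, the ATP synthase genes *atpH* at 2.53 and *atpE* at 0.79, the cytochrome b6f gene *petL* at 1.31 and a probe set of the ribosomal protein gene *rps12* at 1.13. The green tissue markers, 3 of 5 measured, had summed signals of 342 to 409 in FWt, 285 to 448 in GWt, 249 to 696 in FHsf and 409.8 to 492 in GHsf, and their part in the plastid values was not tested.

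The plastid gene groups differed in how far FHsf B4 stood apart. For *rbcL* (ATCG00490, plastid genome 54958 to 56397, plus strand), which encodes the large subunit of Rubisco, the carbon-fixing enzyme, FHsf B4 read 1495 against 252 in B3 and 18.7 in B5. The FWt plates read 455, 178, 41.6 and 828, the GWt plates 430.4, 227, 252 and 200.5, and the GHsf units 583, 126 and 139. All groups overlapped, and the log2 fold changes ran from -0.29 to -0.18 with SE of 1.23 to 1.42. The median excess of B4 was 2.67 for the 5 photosystem I genes, 2.11 for the 15 of photosystem II and 2.16 for the 11 of the NDH complex, which cycles electrons around photosystem I. It was 1.54 for the 4 genes of the plastid RNA polymerase, 1.05 for the 6 of the ATP synthase, 0.94 for the 6 of the cytochrome b6f complex and 0.80 for the 22 ribosomal protein genes. The groups also differ in signal: B4 exceeded its companions by 2.71 over the 40 plastid probe sets of lower signal and by 1.06 over the 40 of higher signal, where probe sets of the same signal ranges had 0.36 and -0.06.

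**Figure D4:**
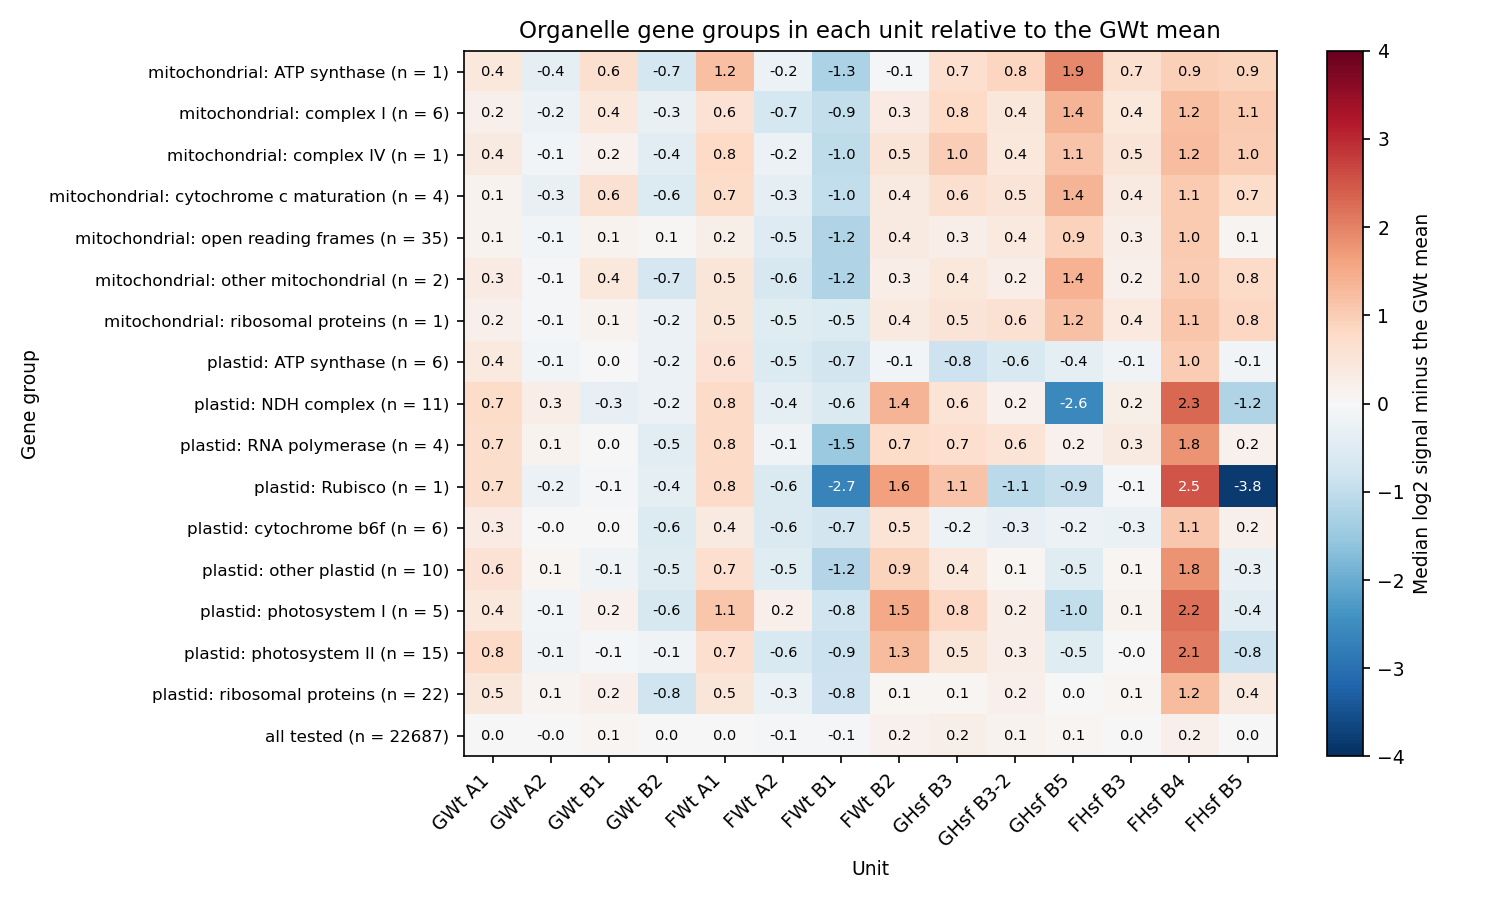
Each value is for an organelle gene group (y axis, with its number of probe sets) in one of the 14 units (x axis). It is the median, over the probe sets of the group, of the log2 signal minus that probe set's own mean in the 4 GWt plates. Red is higher and blue lower. The column of FHsf B4 is positive for every plastid group, with 2.07 for photosystem II and 1.25 for ribosomal proteins, and the mitochondrial rows are positive in all 6 HSFA2 KO columns.

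Only 7 of the 80 plastid probe sets did not have their highest FHsf signal in B4. For *psaA*, a reaction centre protein of photosystem I, B4 was the lowest of the FHsf units, at 63.3 against 112 and 109. Small differences marked strongly expressed genes such as *rpl2*, a ribosomal protein, with 22681, 32787 and 29805 in FHsf B3, B4 and B5. The D1 protein gene *psbA* read 99.1, 759.9 and 116 in the same order, and *rpoC2*, a subunit of the plastid RNA polymerase, 279, 2089 and 123. Of these, *rpl2* and *rpoC2* were chosen after their values were seen. Nuclear lists were read in the same way. B4 exceeded its companions by a median of 0.86 over 26 nuclear photosynthesis genes, 0.44 over 21 genes of organelle transcription, 0.12 over 22 nuclear genes for plastid ribosomal proteins and 0.01 over 21 nuclear respiratory genes. Their median signals were 41.6, 51.3, 743 and 3448 in that order, so the lists also differ in signal.

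The plastid genes called in single comparisons were *ndhA* and *clpP1*. The NDH subunit gene *ndhA* (ATCG01100, 119847 to 122009) rose by 2.68 (SE 0.78, adjusted p of limma 0.573) in FHsf : GHsf, the single call of 80 where 0.547% of all tested were called higher. It fell by 2.26 (SE 0.73, adjusted p of limma 0.305) in GHsf : GWt, again the single call, where 0.934% were called lower. Its signals were 132, 14.7 and 30.3 in GHsf B3, B3-2 and B5, and 310.1, 159, 148 and 164 in GWt. FHsf B3, B4 and B5 read 167, 569.5 and 163, and FWt 169, 72.4, 127 and 279. The GHsf units were thus low, below every FHsf and GWt unit, and 2 of them lay near the lower quartile of the arrays, which ran from 16 to 33.2. Both *ndhA* calls were lost without GHsf B3-2 (1.98 and -1.55), without GHsf B5 (2.50 and -2.08) and with first arrays only (1.20 and -0.45), where the one GHsf array left is B3, the highest of the 3 for *ndhA*, and that in FHsf : GHsf also without FHsf B4 (2.09). In GHsf : GWt the call was lost in 10 of 14 fits that left out a unit, and at -1.49 with 32 added to each signal.

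The gene *clpP1* (ATCG00670, 69910 to 71882), the plastid-encoded subunit of the Clp protease that degrades stromal proteins, was the one plastid call in FHsf : FWt. It read 12203, 22924 and 19011 in FHsf against 10916, 6268, 4241 and 6436 in FWt, and 15855, 14101 and 17628 in GHsf against 12972, 6681, 10887 and 5587 in GWt. The HSFA2 KO units were above all WT units of the same environment in both comparisons. It rose by 1.41 (SE 0.39, adjusted p of limma 0.356) in FHsf : FWt and stood at 0.89 (SE 0.39, adjusted p of limma 0.440) in GHsf : GWt. Where the prior spread followed the signal, its adjusted p in FHsf : FWt was 0.00579, the lowest among organelle probe sets. The call was lost without FHsf B4 (1.21), FHsf B5 (1.35) or FWt B1 (1.20). Over all 80 plastid genes, 26 were higher in HSFA2 KO in both environments, which is 32.5% beside 35.0% of all tested.

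The ATP synthase genes of the plastid lay lower in GHsf than in GWt, with none of the 6 above 0, a median of -0.60 and none called, and *atpE*, *atpB* and *atpH* had GHsf units below all GWt units. Of these, *atpE* and *atpB* are neighbours that overlap in the annotation, and *atpH* read 142, 197 and 19.5 in GHsf against at least 204 in GWt. For *atpB* (ATCG00480, 52660 to 54156) these were 3944, 3207 and 2818 against 5198, 4188, 5091 and 4029, or -0.48 on the log2 scale (SE 0.28, limma's adjusted p 0.582). The FWt plates of *atpB*, at 3626, 2877, 3304 and 3253, also lay below all GWt plates, at -0.50 (SE 0.26, adjusted p of limma 1.000). In FHsf : GHsf *atpB* stood at 0.01 (SE 0.30). For *atpE* the value in GHsf : GWt was -0.73 (SE 0.23), with an adjusted p of limma of 0.290, and of 0.0109 where the prior spread followed the signal. It was the only one of 80 plastid probe sets past 0.05 there, where 1.96% of all tested passed. It is named for that reason, after its values were seen. Plastid probe sets whose groups did not overlap numbered 5 lower and 1 higher in GHsf : GWt, against 5.26% and 7.95% of all tested.

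The other plastid members chosen by symbol were not called in any comparison. The values of *petB* of the cytochrome b6f complex ran from -0.33 to 0.57 over the 4 comparisons, *matK*, an intron maturase, from 0.05 to 0.37, and *accD*, a subunit of acetyl-CoA carboxylase, from -0.31 to 0.91. The photosystem II gene *psbD* ran from -0.37 to 0.09, the plastid *rpl16* from -0.19 to 0.65, the polymerase gene *rpoC1* from -0.03 to 1.12, *ycf2*, for a large protein of the plastid envelope, from -0.95 to 1.12 and the NDH gene *ndhB* from -0.74 to 1.31. Some had large values with large errors, such as 2.60 (SE 1.36) for *rpoB* and 2.53 (SE 1.62) for *ndhF* in FHsf : FWt, and 2.09 (SE 1.56) for *rps14* in FHsf : GHsf. For *rpoB* the FWt plates read 2.36 and 4.47 in A2 and B1 against 122 and 142 in A1 and B2, so the group itself was split.

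Named mitochondrial genes, and plastid genes, moved together from unit to unit within groups. The mean correlation between pairs of probe sets, after group means were removed, was 0.824 for the 15 named mitochondrial genes, 0.328 for all 50 mitochondrial probe sets and 0.495 for the 80 plastid genes, over 14 units that share plate, amplification and array. It was 0.202 for the mitochondrial open reading frames, 0.324 between mitochondrial and plastid probe sets, 0.089 for the 20 nuclear ones in the block and 0.013 over all tested. Nuclear lists with the same complexes had 0.073 for respiratory subunits, 0.037 for photosynthesis, 0.018 for organelle transcription and 0.233 for plastid ribosomal proteins. Plates A1 and B2 of FWt were high in both organelles, with medians of 8.57 and 8.72 for mitochondrial and 8.89 and 9.32 for plastid probe sets on the log2 scale, and plates A2 and B1 were low in both, with 7.46 and 6.67 and with 7.75 and 7.31. GHsf B5 was the highest GHsf unit for mitochondrial probe sets, at 8.75, and the lowest for plastid ones, at 7.81. The plastid median minus the mitochondrial one ran from -0.94 in GHsf B5 to 1.66 in FHsf B4.

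Between the genotypes, nuclear respiratory genes had medians nearer 0 than the mitochondrial genes. The nuclear respiratory subunits, 21 probe sets for 20 of 24 listed loci, had medians of 0.06 in GHsf : GWt and 0.03 in FHsf : FWt, with none called in any of the 4 comparisons. In GHsf : GWt their units did not overlap for 6 of 21, higher in GHsf, and for 1, lower, against 7.95% and 5.26% of all tested. In FHsf : FWt this held for 1 higher and 2 lower, against 1299 and 1079 of 22687 tested. Their median residual SD was 0.21, against 0.56 for the 15 named mitochondrial genes. The 22 nuclear plastid ribosomal protein genes had medians of -0.10 and -0.22, with none called. Of 26 nuclear photosynthesis genes, 1 rose and 1 fell in GHsf : GWt, where 1.53% and 0.934% of all tested did, and 2 fell in FHsf : GHsf, where 0.961% did. These were *RBCS1A*, the small subunit of Rubisco (2.57, SE 0.83), *PSBO2*, of the oxygen-evolving complex (-2.93, SE 0.77), *ATPD*, of the plastid ATP synthase (-2.43, SE 0.64), and *PSBO1* (-2.89, SE 0.92). Their adjusted p of limma were 0.309, 0.219, 0.502 and 0.610 in that order. The FHsf mean of *PSBO1*, 8.36, lay below the lower quartile of every array. Within the range of those quartiles lay the GWt mean of *RBCS1A*, 22.1, and the FHsf mean of *ATPD*, 25.8. So did the FHsf and GHsf means of *PSBO2*, 19.5 and 23.6. The sizes of all these fold changes are thus uncertain. Of 21 probe sets of organelle transcription, 1 fell in FHsf : GHsf, *SIGE*, a sigma factor of the plastid RNA polymerase (-3.17, SE 1.03, adjusted p of limma 0.620), with an FHsf mean of 16.2 in that range.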

How the data were processed

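Callus cells of both genotypes and environments were profiled on 16 ATH1 arrays, from cDNA amplified with the Ovation Pico WTA system and labelled with biotin. The deposited intensity values are MAS5 signals, made by the authors with Affymetrix Expression Console and scaled on each array to a mean of 500.1 after 2% of probe sets were trimmed at each end. Array medians ran from 68.7 to 123.2 and lower quartiles from 16 to 33.2, and the number of arrays limits the precision. The authors' deposited table of log2 fold changes and p-values, made with limma, served only to name the probe sets tested, and none of its values was used.

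The signals were log2 transformed with no value added and fitted with lmFit and eBayes of limma 3.58.1 in R 4.3.3 over 22687 probe sets and 14 units in 4 groups (10 residual and 1.65 prior degrees of freedom, median residual SD 1.14), with Benjamini-Hochberg adjustment. The 123 probe sets left out, 64 of them controls, are absent from that table. Comparisons share groups: FWt : GWt and FHsf : FWt share FWt, GHsf : GWt shares GWt with the first, and FHsf : GHsf shares a group with each genotype comparison. P-values measure the spread between these units. The fit was tested on simulated data. Genome and locus of each probe set came from the array annotation, whose build is not given in the sources used here, and nuclear symbols from a RefSeq table. The growth protocol of some samples names another T-DNA line, and genotypes were taken from the sample titles. Sequences were not used here.

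Named genes were a fixed set of organelle symbols, called organelle probe sets (at most 10 a comparison), 2 called genes per nuclear list and comparison, and *HSFA2*. The members and lists were chosen with earlier results of these data known. Figures were drawn with Python 3.11 and matplotlib 3.10.9. Alternatives concerned the scaling, the offset, the units, canister, array run, filters, prior spread and single units. The labels name no array run, and it was inferred from the replicate suffix of the sample titles. FHsf B3 and GHsf B5 carry the suffix of a second array, with no first array in the series. The fit without both GHsf B3 arrays was added after seeing the data.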

Additional observations from a re-analysis of the deposited data

Results flagged for a closer look

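Among 56 groups of 4 WT plates examined, over named genes and organelle medians, 5 held a plate far from the other 3 by Dixon's ratio, and chance alone marks about 1 in 20 groups. All 5 were GWt groups. Plate GWt B2 was low for *nad7*, at a signal of 517 (ratio 0.940), for *matR*, at 700.2 (ratio 0.904), and for *psbD*, a photosystem II reaction centre protein, at 57.8 (ratio 0.915). Plate GWt A1 was high for *ndhA*, at 310.1 (ratio 0.854), and for *accD*, at 862 (ratio 0.842).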

How the results depend on the processing

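The counts of called organelle probe sets were small (1 of 130 in FWt : GWt, 1 in FHsf : GHsf, 2 in GHsf : GWt, 3 in FHsf : FWt, 0 in the interaction) and moved by over 1.5 times in 5 of 31 settings in FWt : GWt, 21 of 31 in FHsf : GHsf, 22 of 30 in GHsf : GWt, 13 of 30 in FHsf : FWt and 14 of 30 in the interaction. In fits with first arrays only a single GHsf array, B3, is left. At an adjusted p under 0.05 the counts were 0 in all 5, and at an unadjusted p under 0.05 they were 2, 4, 13, 17 and 5 of 130. At that unadjusted p, 432 of all 22687 tested were higher and 565 lower in FWt : GWt. In FHsf : GHsf these were 623 and 939, in GHsf : GWt 1487 and 935, in FHsf : FWt 1067 and 731, in the interaction 494 and 581. Called in the main fit were 0.807%, 1.51%, 2.46%, 1.75% and 1.02% of all tested, in the same order. Counts under the other settings are given without such a share. The counts that moved in FHsf : GHsf were 0 with its groups alone in the fit, with WT plates of canister B only, with an array run term and with plate position as a replicate block, 2 with GHsf B3 and B3-2 averaged, and 3 with first arrays only, an intensity trend, an offset of 32, median centring, quantile normalization or probe sets over the median signal. Those in GHsf : GWt were 0 with its groups alone, canister B only or a canister term, 1 with 16 arrays, first arrays only, the offset or median centring, and 7 with the intensity trend. Those in FHsf : FWt were 1 with its groups alone or canister B only, 7 with first arrays only and 6 with the trend. FWt : GWt gave 0 with canister B only or first arrays only. The interaction gave 1 with 16 arrays, an array run term, median centring, quantile normalization or probe sets over the median, 2 with GHsf B3 and B3-2 averaged, and 4 with first arrays only or the trend. Without both GHsf B3 arrays, where the lone GHsf array, as with first arrays only, is assumed to vary like the other groups, the counts were 8 in FHsf : GHsf, 6 in GHsf : GWt, 5 in FHsf : FWt and 5 in the interaction. Leaving out each unit in turn gave 1 to 2 in FWt : GWt, 0 to 2 in FHsf : GHsf, 0 to 3 in GHsf : GWt, 0 to 7 in FHsf : FWt and 0 to 2 in the interaction. The cause of these moves was not tested.

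Genome medians that moved by more than the SD between units of the groups compared were those of mitochondrial probe sets in FHsf : GHsf (-0.13, SD 0.19), at 0.15 with first arrays only, -0.38 under the replicate block and -0.60 without both GHsf B3 arrays, and in GHsf : GWt (0.74, SD 0.25), at 0.46 with median centring and 1.17 without both GHsf B3 arrays, and that of plastid probe sets in GHsf : GWt (-0.31, SD 0.44), at 0.46 with first arrays only. Over the left-out units the mitochondrial median ran from -0.30 to 0.14 in FHsf : GHsf, from 0.49 to 0.91 in GHsf : GWt and from 0.58 to 1.13 in FHsf : FWt, and the plastid median from -0.46 to 0.23 in GHsf : GWt and from -0.11 to 0.97 in FHsf : FWt. None of the called genes changed sign under any of these settings, part of which could not move their fold changes. Plate positions did not pair the samples: deviations of units with the same position correlated at -0.042 to 0.125. The replicate block was fitted for FWt : GWt, FHsf : GHsf and the interaction only, so the calls between genotypes were not put to it. Under the block the call of *ndhA* in FHsf : GHsf was lost (2.14), and that of *orf121a* in FWt : GWt was kept. The plastid median in FHsf : GHsf was 0.14 under the block, with 48 of 80 above 0, against 0.53 in the main fit.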
